A study of Mus musculus with 278 samples.

Results

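The 74 cells described here are the third quartile of EGFP brightness (Q3) among 278 single ID4-EGFP+ spermatogonia of mice at postnatal day 6, and they were chosen by the quartile that the submitters assigned to each cell. All cells came from untreated mice carrying the ID4-EGFP reporter, whose EGFP follows the transcriptional regulator ID4. Testes of pooled pups were digested with trypsin, EGFP+ cells were sorted, single cells were captured on Fluidigm C1 chips, and cells that were dead, joined or mixed with debris were left out before deposit. Brightness was read from an image of each cell on the chip, and the ranked cells were cut into Q1 (bright, 74 cells), Q2 (70), Q3 (74) and Q4 (dim, 60). The study made 5 preparations, and Q3 holds 7, 15, 12, 20 and 20 cells of preparations 1 to 5. The comparison that Q3 allows is with its neighbours in brightness, Q2 on the bright side and Q4 on the dim side, within each preparation.

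Spermatogonia divide in the basal part of the seminiferous tubule and pass from a stem cell state through a transit-amplifying progenitor state to differentiation. Stem cells respond to GDNF from Sertoli cells through the co-receptor GFRA1 and the receptor tyrosine kinase RET. These receptors maintain the transcription factors ETV5 and BCL6B, the transcriptional regulator ID4 and the RNA-binding protein NANOS2. Progenitors take up NEUROG3, SOX3 and the retinoic acid receptor RARG, and retinoic acid then induces STRA8 and the receptor KIT, while SOHLH1 and SOHLH2 drive differentiation.

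Expression was measured as FPKM (fragments mapped to a transcript, scaled by its length and by the mapped fragments of the cell), a level per length that allows genes to be compared within a cell. A gene was called detected in a cell at an FPKM of at least 1. Q3 cells held a median of 6208 detected genes (2610 to 7706) at an estimated median of 663756 mapped fragments (253383 to 1174858). The Q3 cells of preparation 3 stood apart, with a mean of 4284 detected genes against 5955 to 7078 in the others, although their estimated depth of 768338 fragments was not low, and the other quartiles of preparation 3 were low as well. Within preparations, Q3 had 374 ± 329 more detected genes than Q4 (SD over the 5 preparations, n = 5, higher in 4 of 5, exact sign-flip permutation p = 0.125) and 67.3 ± 138 fewer than Q2 (exact p = 0.375). On the log2 scale its estimated depth lay 0.18 ± 0.19 below that of Q2, in 5 of 5 preparations, and 0.01 ± 0.09 above that of Q4. These breadth values move with the shares of cells given below, and their part in them was not tested.

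The germ cell identity of Q3 was checked on 13 markers. Ddx4, Dazl, Mael, Uchl1 and Rnf17, all genes of germ cells, were detected in 74 of 74 Q3 cells, and the cell with the fewest markers had 6 (median 12). Amh and Fshr, which define Sertoli cells, were detected in 0 of 74 cells, which allows a share of cells with a detected transcript of up to 4.05%, for counting error alone and with the cells taken as independent. Of 10 Sertoli markers, 8 were detected in at least 1 Q3 cell and 6 cells held at least 2 of them, with a summed level of 0 to 1232 FPKM (median 0), the highest of any quartile, where Q2 reached 277 and Q4 reached 134. Among 6 Leydig cell markers Star alone was detected. Of 6 endothelial markers 4 were detected, most often Egfl7 (27 cells), and 4 cells held at least 2. Of 5 peritubular myoid markers 4 were detected, against 2 in Q2 and 2 in Q4, and 1 Q3 cell held at least 2. Of 5 blood and macrophage markers 3 were detected, against 1 in Q2 and 1 in Q4, and 0 Q3 cells held at least 2. The part of such cells or their RNA in the results was not tested.

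Q3 was named beforehand by Zbtb16, Sohlh1 and Kit, and all of them were present. Zbtb16 encodes PLZF, a transcription factor of undifferentiated spermatogonia, and was detected in 69 of 74 Q3 cells. Sohlh1, which encodes a transcription factor needed for differentiation, was detected in 66 cells, and Kit, the receptor for stem cell factor that marks differentiating spermatogonia, in 47. All 3 genes were detected together in 44 of 74 cells, and none of them in 2. Mean Zbtb16 levels in Q3 were 56.5, 77.2, 27.3, 40.7 and 55.1 FPKM in preparations 1 to 5, which overlap the 25.8 to 73 FPKM of Q2 and the 20.5 to 59.98 FPKM of Q4. A marker of the undifferentiated state and a marker of differentiation were thus read from most of the same cells.

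Differences over all genes were tested with limma on the mean over cells of log2(FPKM + 1) in each preparation and quartile, with the preparation as a block and Benjamini-Hochberg adjustment over 10452 genes, those detected in no fewer than 10% of cells. In limma 0 genes passed an adjusted p of 0.05 between Q3 and Q2, and 108 had an unadjusted p under 0.05. The same count was 0 between Q3 and Q4, with 235 at an unadjusted p under 0.05, and the smallest adjusted p was 1 in both. By this rule 0% of all genes were called, and 0 of the 47 genes tested from the stem cell, undifferentiated, progenitor and differentiating lists. At an unadjusted p under 0.05, 0.478% of all genes were higher and 0.555% lower in Q3 than in Q2, and 2.11% were higher and 0.134% lower in Q3 than in Q4. The 5% that an unadjusted two-sided threshold would pass covers both directions together, which is 522.6 of the genes tested, against the 108 and 235 found. Each share in 1 direction has only a part of that 5% to be set against. Testing Q3 against the midpoint of Q2 and Q4 also gave 0 calls in limma (0.976% higher and 0.201% lower at an unadjusted p under 0.05), as did testing it against the mean of the other 3 quartiles (0.737% higher and 0.258% lower). These comparisons share the Q3 cells. The median difference over all genes was -0.03 from Q2 and 0.14 from Q4 on the log2 scale, and 67.4% of genes lay above 0 in the latter. With 5 preparations of 4 to 20 cells a quartile, the values below are therefore descriptions of level, share and spread.

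The genes with the smallest p-values did not pass the adjusted threshold in limma. Cdh1, which encodes the adhesion molecule E-cadherin of undifferentiated spermatogonia, was among the first 5 of those higher in Q3 than in Q4. Its mean level in Q3 was 4.13, 16.1, 32.8, 12.02 and 9.28 FPKM in preparations 1 to 5, against 2.10, 5.49, 1.35, 0.65 and 0.17 FPKM in Q4. Q3 was the higher in each preparation, while the ranges of the groups overlapped. The log2 difference was 1.28 ± 0.38 (SE; unadjusted p = 0.0024, adjusted p = 1). Q2, at 10.6 ± 4.72 FPKM, was close to Q3, at 14.9 ± 10.9 FPKM, and the log2 difference between them was 0.26 ± 0.37. The share of cells with Cdh1 was less uniform than the level. It was higher in Q3 than in Q4 in 4 of 5 preparations, with -32.1 points in the other. Parp2, a DNA repair enzyme, had a log2 difference of 1.22 ± 0.34 from Q4 and Chp1 one of 1.74 ± 0.49, both above 0 in 5 of 5 preparations. Zfp760, a zinc finger gene, had the smallest p of those lower in Q3 than in Q4, with 0.16 FPKM in Q3 against 6.71 in Q4 and 2.73 in Q2. Against Q2, Dedd lay at -1.46 ± 0.43 and Zfp948 at -1.59 ± 0.49, both below 0 in 5 of 5 preparations. Dedd shares exon sequence with Nit1 on the other strand, so its level may include reads of that gene.

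Stem cell genes differed widely in how many Q3 cells had them. Of the 22 genes listed, 7 (Gfra1, Ret, Etv5, Tcl1, Mycn, Glis3 and Cd9) were detected in at least 50% of the Q3 cells and 15 in fewer. The mean of 9 of the 17 tested members (52.9%) lay between those of Q2 and Q4, against 40.3% of all genes. Of the 22, 17 were tested and 0 were called in limma. Their median log2 difference was -0.31 from Q2 (14 of 17 members below 0, all genes -0.03) and 0.41 from Q4 (12 of 17 above 0, all genes 0.14). Of all genes, 45.2% lay above 0 from Q2 and 67.4% from Q4, so the count of 12 of 17 is near the share over all genes. Without preparation 5 the median difference from Q2 was -0.03, beside -0.01 over all genes. The median of the members lay below Q2 in 4 of 5 preparations and above Q4 in 4 of 5. The list moves with detected genes, and with the mean number of detected genes as a covariate its median difference from Q4 was 0.16, where that over all genes moved from 0.14 to -0.01.

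Gfra1 was detected in 100, 100, 75, 50 and 50% of the Q3 cells of preparations 1 to 5. The shares in Q4 were 100, 73.3, 28.6, 40 and 21.1%, and those in Q2 were 85.7, 75, 71.4, 75 and 85%. Q3 thus matched or exceeded Q4 in every preparation, and lay under Q2 in preparations 4 and 5 alone. Mean levels were 35.8 ± 21.7 FPKM in Q3, 41.8 ± 30.2 in Q2 and 28.8 ± 9.36 in Q4. The log2 difference of Q3 from Q4 was 0.91 ± 0.56 in limma (SE; above 0 in 5 of 5 preparations, unadjusted p = 0.118, adjusted p = 1). It was -0.02 where the log2 was taken of the mean FPKM. Gfra1 was thus found in more Q3 than Q4 cells, while the Q4 mean rested on fewer cells, as in preparation 5 (36.1 FPKM with 21.1% of cells). The gene lies on chromosome 19 (58235604 to 58455909, minus strand, GRCm38), and its exons overlap those of the antisense gene Gm16277.

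Etv5, a transcription factor induced by GDNF, followed a stepped order of shares: 93.9 ± 5.16% in Q2, 78.7 ± 19.5% in Q3 and 61.9 ± 27% in Q4. The Q3 share was 100, 93.3, 75, 75 and 50% in preparations 1 to 5. It lay below Q2 in 4 of 5 preparations and above Q4 in 4 of 5, with preparation 1 at 100% in every one of these quartiles (exact p = 0.125 for each difference, adjusted p = 1 and 0.844 over the 54 genes of the panel). Bcl6b, another GDNF-induced factor, was detected in 47.3 ± 20.3% of Q3 cells against 60.2 ± 28.8% of Q2 and 42.9 ± 31.9% of Q4 cells. Its Q3 share lay below that of Q4 in 4 of 5 preparations, and above it by 50 points in preparation 3. Ret was detected in 72 ± 21.9% of Q3 cells, and its mean level of 11.6 ± 4.56 FPKM was under the 15.4 ± 5.2 of Q2 and the 13.7 ± 7.32 of Q4. Foxc2, a forkhead factor of quiescent stem cells, was detected in 42.8 ± 20.1% of Q3 cells. The Foxc2 level was 10.9 ± 8.38 FPKM in Q3, 13.6 ± 6.79 in Q2 and 3.69 ± 1.66 in Q4, and its log2 difference from Q2 was below 0 in 5 of 5 preparations (-0.59 ± 0.39, SE).

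Transcript of Id4, the gene that the reporter follows, was detected in 25 of 74 Q3 cells. Its share in Q3 was 57.1, 73.3, 25, 25 and 10% in preparations 1 to 5, a wider spread than in Q2 (28.6 to 62.5%) or Q4 (0 to 33.3%). The means were 38.1 ± 26.2% in Q3, 40.9 ± 14.9% in Q2 and 23.3 ± 13.5% in Q4, and the quartiles overlapped. The levels were low, with a mean of 6.69 ± 5.39 FPKM in Q3, and 5 cells carried 52.7% of the summed Id4 level of Q3. Nanos2, a translational repressor of stem cells, was rarer still, in 16 of 74 cells. Its share of Q3 cells was 42.9, 20, 16.7, 20 and 20%, higher than in Q4 in 5 of 5 preparations by 11.7 ± 6.06 percentage points (exact p = 0.0625, the smallest that 5 pairs can give, adjusted p = 0.844). The mean Nanos2 level in Q3 was 5.89 ± 3.88 FPKM against 6.36 ± 9.79 in Q4, so that the level did not have the order of the share. Among the rarest stem cell genes, Eomes was detected in 4 Q3 cells, Pax7 in 3 and T in 1, while Shisa6 and Pdx1 were detected in 0 of 74.

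Glis3, a zinc finger factor needed for the early stem cell pool, did not lie between its neighbours. It was detected in 56.5 ± 22.9% of Q3 cells, below the 72.6 ± 10.4% of Q2 and the 68.7 ± 24.6% of Q4. Its share in Q3 was lower than in Q4 in 5 of 5 preparations, by 12.2 ± 7.49 points (exact p = 0.0625, adjusted p = 0.844). That gap was 0.67 points where any value above 0 counted as detection, and 24.2 points among cells with at least 4000 detected genes. The mean level was 6.64 ± 3.70 FPKM in Q3, 13.9 ± 5.41 in Q2 and 11.5 ± 5.75 in Q4.

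**Figure D1:**
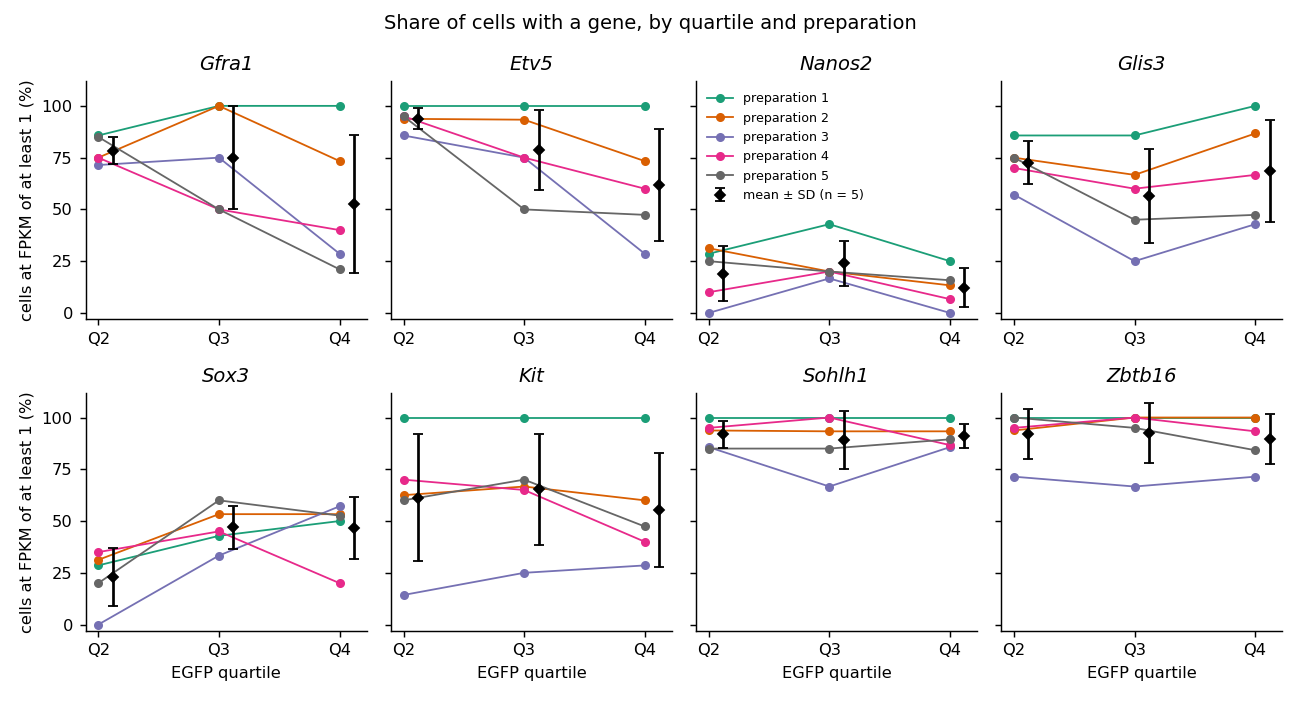
Share of cells with a gene at an FPKM of at least 1 (percent, vertical axis) in Q2, Q3 and Q4 for 8 genes, with a coloured line for each preparation and a black diamond for the mean ± SD of the 5 preparations. Sox3 shares are higher in Q3 than in Q2 in every preparation (46.9% against 22.96% on average). Mean Etv5 shares step down toward Q4. Mean Gfra1 shares are close in Q2 and Q3 (78.4% and 75%) and lower in Q4 (52.6%). Kit and Zbtb16 are lowest in preparation 3.

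Among progenitor genes, Sox3 was detected more often in Q3 than in Q2 in every preparation. Sox3 encodes a transcription factor of progenitor spermatogonia and was detected in 42.9, 53.3, 33.3, 45 and 60% of Q3 cells in preparations 1 to 5, against 28.6, 31.3, 0, 35 and 20% of Q2 cells. The mean difference was 23.9 ± 12.6 points, although the ranges of the groups overlapped (exact p = 0.0625, adjusted p = 1). Q4, at 46.6 ± 15.1%, had a mean close to the 46.9 ± 10.2% of Q3. The Sox3 level was low, 3.10 ± 2.42 FPKM in Q3, 1.59 ± 1.00 in Q2 and 3.11 ± 1.97 in Q4, and the difference in share from Q2 was 4.67 points where detection needed an FPKM of at least 5. In limma the log2 difference from Q2 was 0.46 ± 0.32 (SE, adjusted p = 1), and 0.19 without preparation 5. Sox3 is a single-exon gene on chromosome X (60891366 to 60893430, minus strand).

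The other progenitor genes had no common order. Neurog3, a basic helix-loop-helix factor of progenitors, was detected in 8 of 74 Q3 cells, with shares of 11.5 ± 8.10% in Q3, 7.36 ± 6.89% in Q2 and 14.8 ± 9.40% in Q4, and 5 cells carried 94% of its summed level. Upp1, a uridine phosphorylase, had 40.6 ± 30.4 FPKM in Q3, nearer to the 30.03 ± 11.01 of Q2 than to the 83.9 ± 39.3 of Q4, and was detected in 0 of the 12 Q3 cells of preparation 3. Rarg was detected in 29.9 ± 13.2% of Q3 cells, between 23.6 ± 17.2% in Q2 and 47.1 ± 27.9% in Q4. Nanos3 and Lin28a, RNA-binding proteins of undifferentiated germ cells, were detected in 56 and 58 of 74 cells. Of these 6 genes, 5 had a mean log2 difference above 0 from Q2 and 3 from Q4, none called in limma. Over all genes, 45.2% lay above 0 from Q2 and 67.4% from Q4.

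Of the 12 differentiation genes listed, 10 were detected in at least 50% of the Q3 cells, and Dmrtb1 (13 cells) and Esx1 (7 cells) in fewer. The mean Kit level in Q3 was 29.7, 26.04, 22.2, 24.4 and 44.6 FPKM in preparations 1 to 5, and each value was above that of Q2 in the same preparation (15.8, 16.7, 21.97, 14.7 and 16.01 FPKM). The Q3 and Q2 ranges did not overlap, though the margin in preparation 3 was small. In limma the log2 difference from Q2 was 0.63 ± 0.49 (SE; above 0 in 5 of 5 preparations, unadjusted p = 0.214, adjusted p = 1), and 0.34 without preparation 5. Q4 ranged more widely, from 9.996 to 56.99 FPKM. The difference of Q3 from Q4 was 0.62 ± 0.50, and -0.26 with detected genes as a covariate. The share of cells with Kit was 65.3 ± 26.7% in Q3, 61.4 ± 30.8% in Q2 and 55.2 ± 27.5% in Q4, and was lowest in preparation 3 in each of them. Kit lies on chromosome 5 (75574916 to 75656722, plus strand).

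Sohlh1 had 128, 135, 187, 118 and 74.7 FPKM in the Q3 cells of preparations 1 to 5, and was above Q2 in preparations 1 to 4. Its mean of 129 ± 40.1 FPKM lay between 91.2 ± 13.5 in Q2 and 144 ± 57.2 in Q4. Crabp1, a retinoic acid binding protein, averaged 315 ± 117 FPKM in Q3, 195 ± 21.6 in Q2 and 278 ± 87.2 in Q4. It had the smallest unadjusted p of the differentiating list against Q2 (log2 difference 0.81 ± 0.44, p = 0.0788, adjusted p = 1 in limma), and its highest Q3 value was the 517 FPKM of preparation 5. Stra8, the meiotic gatekeeper induced by retinoic acid, ranged from 30.2 to 344 FPKM over the Q3 preparations, and 5 cells carried 44.1% of its summed level. Of the 12 genes listed, 11 were tested and 0 were called. Their median log2 difference was 0.08 from Q2 and 0.12 from Q4, beside -0.03 and 0.14 over all genes.

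To place single cells, 6 stem genes (Id4, Gfra1, Ret, Etv5, Bcl6b, Nanos2), 6 progenitor genes (Neurog3, Sox3, Upp1, Rarg, Nanos3, Lin28a) and 6 differentiation genes (Kit, Sohlh1, Sohlh2, Stra8, Ccnd2, Dnmt3b) were taken as cores and the detected ones counted in each cell. Q3 cells had on average 4.71, 4.33, 3, 2.75 and 1.95 stem core genes in preparations 1 to 5. In Q2 the numbers were 4.43, 4.25, 2.86, 3.45 and 3.5, and in Q4 they were 3.75, 3.47, 1, 2.53 and 1.89. Q3 exceeded Q4 in 5 of 5 preparations, by 0.82 ± 0.77 genes (exact p = 0.0625, adjusted p = 0.5 over the 18 differences of this kind). The size differed between preparations. In preparations 1, 2 and 3 the Q3 mean lay slightly above Q2, in preparation 4 it lay between its neighbours, and in preparation 5 it lay beside Q4. The mean difference from Q2 was -0.35 ± 0.77, and -0.05 without preparation 5, while the difference from Q4 was 0.53 without preparation 3.

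In preparation 5, Q3 cells also lay between their neighbours in detected genes, with a mean of 5955 against 6216 in Q2 and 5330 in Q4, at an estimated 774151 fragments against 781484 in Q2. Progenitor core genes numbered 2.87 ± 0.67 in Q3, 2.49 ± 1.03 in Q2 and 3.03 ± 0.83 in Q4. Differentiation core genes numbered 5.08 ± 0.58, 5.18 ± 0.54 and 4.89 ± 0.73, so that Q3 cells held about 5 of the 6 on average.

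**Figure D2:**
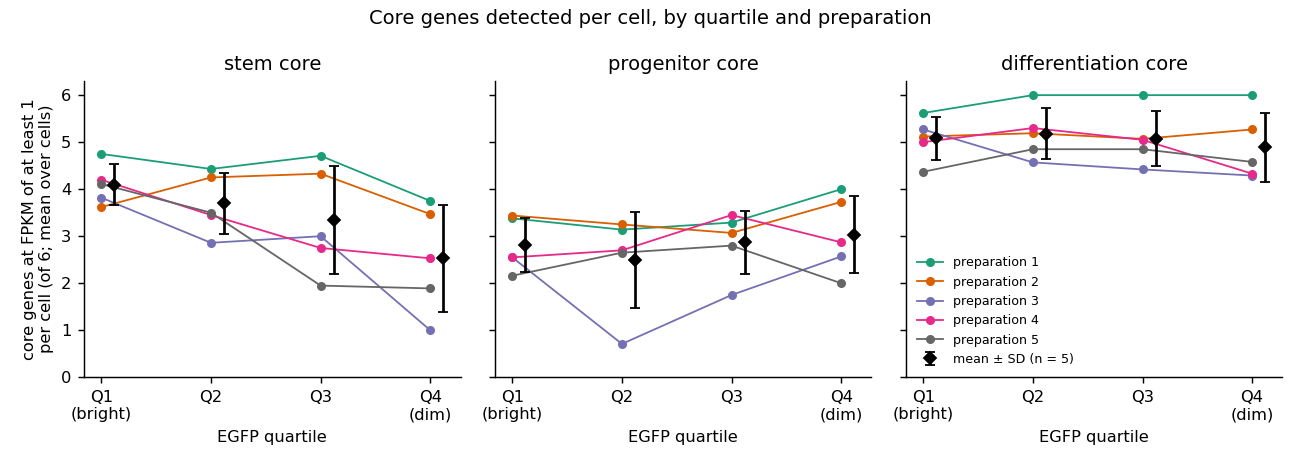
Mean number of stem, progenitor and differentiation core genes detected per cell (of 6, vertical axis) in Q1 to Q4, with a coloured line for each preparation and a black diamond for the mean ± SD of the 5 preparations. In the stem core, Q3 is level with Q2 in preparations 1 to 3 and beside Q4 in preparation 5 (1.95 against 1.89), while the differentiation core stays between 4.29 and 6 genes in Q2, Q3 and Q4.

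Over all 10452 genes, the Q3 mean lay between those of Q2 and Q4 in 36.6% of the gene and preparation values, above both in 34.4% and below both in 27.6%. For the 17 stem cell genes the share between was 44.7%, for the 6 progenitor genes 46.7%, for the 13 undifferentiated genes 32.3% and for the 11 differentiating genes 30.9%. Gfra1, Foxc2, Egr2 and Cd9 were between their neighbours in 4 of 5 preparations. Kit was above both in 3 preparations and between in 2, and Glis3 was below both in 4.

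Stem and differentiation genes were co-detected within most Q3 cells. At least 2 stem and at least 2 differentiation core genes were found in 57 of 74 cells, which is 100, 100, 75, 80 and 50% of the cells of preparations 1 to 5. The other 17 cells held at least 2 differentiation but fewer than 2 stem core genes. All 74 cells held at least 2 differentiation core genes, so the rule turned on the stem core genes alone. That 0 of 74 cells held the stem core without the differentiation core follows from this. The mean share with both was 81 ± 20.7% in Q3, 91.9 ± 5.35% in Q2 and 65.6 ± 28.3% in Q4. Q3 was below Q2 in 3 of 5 preparations and above it in 1, and above Q4 in 3 and below it in 1 (exact p = 0.25 for each, adjusted p = 0.5). The difference from Q2 was -10.9 ± 17.8 points, and -3.62 points without preparation 5, and the difference from Q4 of 15.4 ± 19.7 points was 7.68 points without preparation 3.

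**Figure D3:**
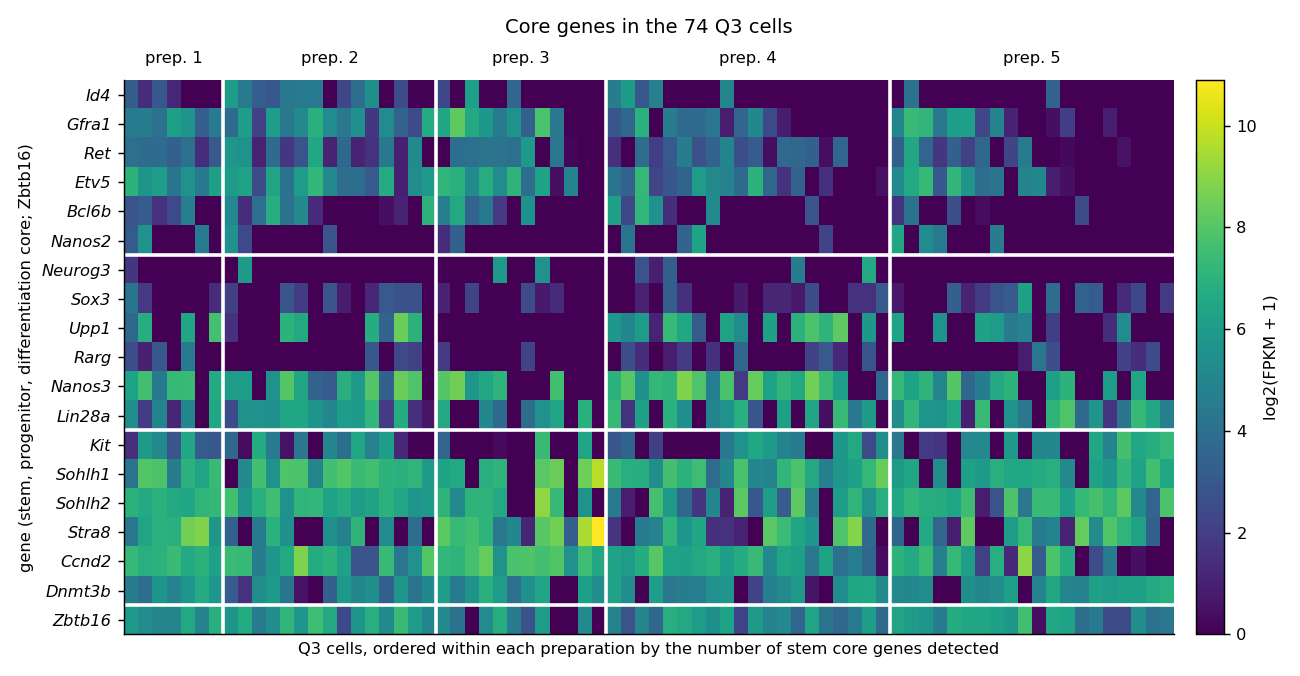
Level of the 18 core genes and Zbtb16 (vertical axis) in each of the 74 Q3 cells (horizontal axis), coloured by log2(FPKM + 1) and grouped by preparation, with cells ordered by their number of stem core genes within each preparation. All cells of preparations 1 and 2 have at least 2 stem and at least 2 differentiation core genes, while 10 of 20 cells of preparation 5 have fewer than 2 stem core genes, and Ccnd2 is detected in 5 of those 10.

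Pairs of genes were compared with the product of their shares within each preparation, which is the share of cells expected to hold both if the genes were detected independently. The difference is 0 by construction wherever a gene is in all or none of the cells of a preparation. Of the 22 pairs chosen, 15 had a mean difference above 0 in Q3. Pairs of Gfra1 with Etv5, Ret or Nanos2 lay farthest above the product. Gfra1 and Etv5 were found together in 47 of 74 cells, 7.58 ± 7.11 points above the product and in 0 preparations below it. Gfra1 and Ret were together in 43 cells, 7.42 ± 8.20 points above it (exact p = 0.25 for both). In preparations 1 and 2 all cells had Gfra1, and 0.25 is the smallest p that the other 3 preparations can give. The same pairs lay 1.72 and 5.39 points above it in Q2, and 9.41 and 3.44 points in Q4. Id4 with Gfra1 (1.75 points) or Etv5 (2.14 points) lay under Kit with Stra8 (2.43 points) in Q3. Of the 16 cells with Nanos2, 15 had Gfra1.

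Pairs of a stem gene with Kit lay under the product on average for Gfra1 and Etv5, above it for Id4 (1.66 ± 2.67 points), and on both sides of it for Nanos2 (-0.57 ± 4.49 points, above in 2 preparations and below in 1). The sign for Id4 and Kit was not stable, at -2.02 to 2.57 points under alternative settings. That pair lay at -3.28 points in Q2 and -0.63 points in Q4. Both Gfra1 and Kit were detected in 30 Q3 cells, Gfra1 alone in 21, Kit alone in 17 and neither in 6. The observed share of 47.7% was 2.92 ± 3.28 points under the product of 50.6%, below it in 3 preparations and equal in 2, where all cells had Gfra1 (exact p = 0.25, adjusted p = 0.846). This exact p is the smallest that 3 preparations with a difference can give. Etv5 and Kit were detected together in 33 cells, 2.61 ± 1.89 points under the product and below it in 4 of 5 preparations (exact p = 0.125, the smallest that 4 can give). In Q2 and Q4 the Gfra1 and Kit pair lay 2.74 ± 1.67 and 4 ± 4.43 points above the product, and the difference between quartiles was not tested. The Q3 cells with both genes had a median of 7066 detected genes and the other Q3 cells 5849, and the part of breadth in co-detection was not tested.

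Markers of the undifferentiated and differentiating states overlapped in Q3. Zbtb16 and Sohlh1 were found together in 63 of 74 cells, and Zbtb16 accompanied Kit in 46 of the 47 cells with Kit. The mean shares were close to the products, at 84.7 against 83.7% for Zbtb16 and Sohlh1 and 64.3 against 62.97% for Zbtb16 and Kit. Zbtb16 and Sohlh1 were also found together in 61 of 70 Q2 cells and 50 of 60 Q4 cells. Id4 and Kit were detected together in 18 of the 25 cells with Id4. All 8 cells with Neurog3 had Sohlh1, 6 of them had Gfra1 and 4 had Kit. The mean share with Neurog3 and Sohlh1 was 11.5%, close to the product of 10.3%. Kit and Stra8 were detected together in 39 cells, 2.43 ± 4.33 points above the product.

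**Figure D4:**
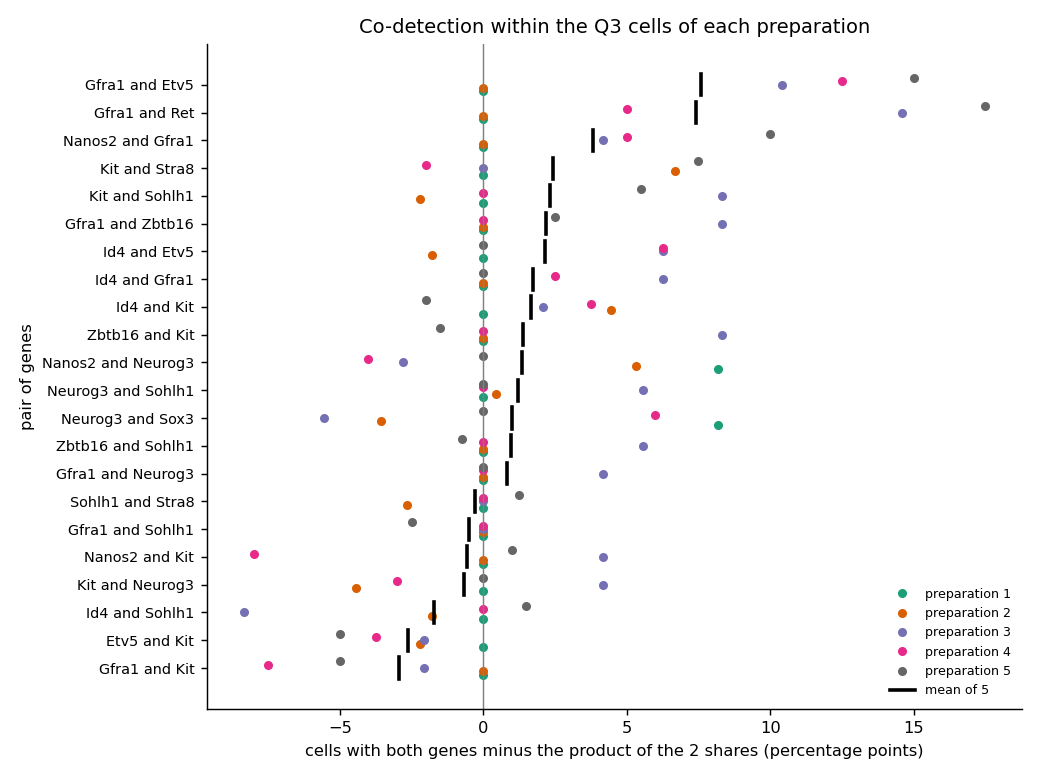
Share of Q3 cells with both genes of a pair minus the product of the shares of the genes (percentage points, horizontal axis) for 22 pairs (vertical axis), with a coloured point for each preparation and a black bar for their mean. Pairs of Gfra1 with Etv5, Ret or Nanos2 lie at or above 0 in every preparation, and Gfra1 or Etv5 with Kit lie at or below 0.

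Single Q3 cells ranged from 0 to 6 stem core genes and from 2 to 6 differentiation core genes. In all, 11 of 74 cells had 0 stem core genes, and 19 had 5 or 6. The 11 cells with 0 stem core genes came from preparations 3 (2 cells), 4 (3 cells) and 5 (6 cells). Of these 11 cells, 10 had Kit, 11 had Sohlh1, 11 had Dnmt3b, 6 had Ccnd2, 10 had Zbtb16 and 3 had Nanos3. Of the 19 cells at the other end, 12 had Kit, 17 had Sohlh1, 16 had Dnmt3b, 19 had Ccnd2, 18 had Zbtb16 and 18 had Nanos3, and 12 of the 19 held 5 or 6 differentiation core genes as well.

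Genes outside the cores were described in the 57 cells with both cores and the 17 without the stem core, with no test, since the cells were grouped by their own values. Dusp6, a phosphatase induced by ERK signalling, was detected in 50 of the 57 and 5 of the 17, and Spry4, an inhibitor of the same pathway, in 32 and 1. These were among the wider gaps of the 20 targets of GDNF and FGF signalling, of which 2 are stem core genes. The share was higher in the 57 cells for 19 of the 20, and lower for Mycn (68.4 against 76.5%). Those 19 include the 2 stem core genes, Etv5 and Bcl6b, whose own detection helped to form the groups. Narrow gaps were those of Spry1 (19.3 against 17.7%), T (1.75 against 0%), Egr3 (3.51 against 0%) and Dusp5 (17.5 against 11.8%). Those of Spry2 (59.7 against 52.9%) and Spred1 (49.1 against 41.2%) were also small. The same count over all genes was not taken, so 19 of 20 has no background beside it. Tcl1, a co-activator of AKT, was detected in 52 and 8. Dmrtb1, a factor that controls the entry into meiosis, was detected in 7 and 6, and Id2, a relative of Id4, in 5 and 7. Crabp1 was found in nearly all cells of both kinds, at medians of 203 and 568 FPKM, and Cd9 at medians of 218 and 87.2 FPKM. Kit, itself a core gene, had a median of 6.40 FPKM in the 57 cells and 42.5 FPKM in the 17. The median cell of the former had 6356 detected genes and that of the latter 5825. Within preparation 5, which held 10 cells of each kind, Dusp6 was in 8 and 4 cells, Tcl1 in 9 and 4, Dmrtb1 in 1 and 6, and Id2 in 1 and 6.

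Other gene lists were read from the same limma fit, and 0 of their members were called between Q3 and either neighbour. Targets of GDNF and FGF signalling share Etv5, Bcl6b, Lhx1, Egr2, Mycn and Pou3f1 with the tested stem cell genes. The lists are thus not independent. The targets lay between Q2 and Q4 in 55% of the gene and preparation values, against 36.6% over all genes. Their median log2 difference was -0.27 from Q2 (13 of 16 tested members below 0) and 0.33 from Q4 (13 of 16 above 0, the member median above 0 in 5 of 5 preparations). For this and the next list, 45.2% of all genes lay above 0 from Q2 and 67.4% from Q4. Egr1, an immediate early factor, had the smallest unadjusted p of this list against Q4, with 92.2 FPKM in Q3 and 69.2 in Q4 (log2 difference 0.79 ± 0.35, SE, p = 0.0346, adjusted p = 1). Genes of the G1/S transition lay above Q4 for 30 of 34 members, with a median of 0.40 against 0.14 over all genes, and 16 of 34 lay above Q2. That median was 0.13 from the log2 of the mean FPKM and 0.02 with detected genes as a covariate. Rfc2, a subunit of the clamp loader of DNA replication, led this list against Q4 with 128 FPKM in Q3 and 71.5 in Q4 (log2 difference 1.55 ± 0.52, SE, p = 0.00707, adjusted p = 1).

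Ribosomal protein genes had 60 of 84 members above Q2 and 56 of 84 below Q4, at medians of 0.08 and -0.07. The median from Q4 was 0.08 with cells scaled to a common 75th percentile. The averages of 65.5% of them lay between Q2 and Q4, against 40.3% of all genes. Retinoid genes had medians of 0.01 from Q2 and -0.08 from Q4. Of the 17 meiotic genes tested, 6 lay above Q2 and 11 above Q4, and among 26 G2/M genes the counts were 8 and 17, where 45.2% of all genes lay above Q2 and 67.4% above Q4. The germ cell list had medians of -0.16 from Q2 and 0.09 from Q4, and Uchl1, a ubiquitin hydrolase of spermatogonia, lay above Q2 in 5 of 5 preparations (log2 difference 0.47 ± 0.20, SE, unadjusted p = 0.0295, adjusted p = 1), on reads that its antisense gene Uchl1os may share.

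Likeness between cells was summarised for each quartile. The median correlation between pairs of cells of the same preparation, across genes, was 0.58 ± 0.07 in Q3, 0.58 ± 0.06 in Q2, 0.59 ± 0.05 in Q1 and 0.56 ± 0.08 in Q4. It was lowest in preparation 3 in each quartile, where it was 0.47 in Q3 and 0.43 in Q4. The values are descriptions of cells that share a preparation, and they move with the number of detected genes.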

How the data were processed

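The authors deposited one matrix of FPKM values for the 278 cells, with 23354 genes. FPKM is taken from the quantifier named in the submitters' processing notes (Cufflinks, after TopHat, genome mm10 or GRCm38) and from the values, since the header names only cells. Per the labels, cDNA was made with the SMARTer kit, which does not mark strand. Beside the genes marked above, exons of others such as Id4, Nanos2, Neurog3, Ccnd2 and Rfc2 overlap genes on the other strand. Their levels may include reads of those genes. A protocol text in the labels calls the lower quartile Q2 while the series' design text calls Q4 dim, and the latter was followed. Whether brightness was ranked within or across preparations is not given in the sources used here. The number in each title was read as the preparation, and no label ties a preparation to a litter.

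Members and gene lists were chosen with earlier results of these data known. Means of log2(FPKM + 1), with a pseudocount of 1, over the cells of each preparation and quartile (20 means) entered a fit in limma 3.58.1, run in R 4.3.3 (trend, weighted by cells, preparation as a block, 12 residual degrees of freedom, two-sided). The log2 scale with this pseudocount understates changes of low genes. The spread is that between these means, which includes the sampling of cells. Among 30 pairs of means that share a preparation, departures from their quartile's mean correlated across genes with a median of 0.18 and a lowest of 0.05, against -0.09 between preparations, and the pairing rests on the shared suspension. The smallest two-sided p of the exact sign-flip test with 5 preparations is 0.0625. Where some preparations have a difference of 0 it is larger, 0.125 with 4 that differ and 0.25 with 3. The panel of 54 genes, 22 pairs and 18 core and breadth differences were each adjusted by the Benjamini-Hochberg method. Named genes were those of the 4 lists of spermatogonial states, the 5 genes of smallest p in each direction of a comparison with no calls, and members of other lists with an unadjusted p under 0.05, of which the text gives a selection. Depth is not in the matrix and was estimated from 2110 genes with a sole transcript, as the size of the step that separates their lowest FPKM values. Exact zeros may be failed estimates. Coordinates are those of GENCODE M21 on GRCm38. The fit was checked on simulated data.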

Additional observations from a re-analysis of the deposited data

Results flagged for a closer look

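In groups of 5 preparations, a value was marked when its gap to the nearest of the others exceeded the critical share of 0.71 of the whole range, and 6 of 79 groups tested were marked, where chance marks about 1 in 20. Preparation 1 gave the log2 difference of Bcl6b between Q3 and Q2 at -1.84 (others -0.61 to -0.38) and the share of Q3 cells with Nanos2 at 42.86% (others 16.67 to 20%), each from 7 cells. Preparation 3, the one with the fewest detected genes, gave the share of Q3 cells with Zbtb16 at 66.67% (others 95 to 100%) and the log2 difference of Ccnd2 from Q4 at 4.90 (others -0.40 to 0.23). Preparation 5 gave the share of Q3 cells with Ccnd2, a G1 cyclin, at 75% (others 95 to 100%) and the log2 difference of Zbtb16 from Q4 at 1.00 (others -0.13 to 0.20).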

How the results depend on the processing

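All 4 comparisons over genes kept 0 calls in limma under the 13 or 14 alternatives run for each, while genes at an unadjusted p under 0.05 numbered 93 to 433 against Q2 and 92 to 766 against Q4, with the upper ends reached without preparation 1 (433) and with means not weighted by cells (766). In the fit without the replicate block the counts were 0 genes called and 207 at an unadjusted p under 0.05 against Q2, and 0 and 285 against Q4, and the block changed no call. Panel genes whose share moved one way in every preparation numbered 1 against Q2 and 2 against Q4. Leaving out each preparation in turn gave 1 to 5 such genes against Q2 and 3 to 9 against Q4, and detection at an FPKM of at least 5 gave 4 against Q4. Small differences of core genes changed sign under some alternatives, and the cause was not tested. Against Q2 on the log2 scale, Rarg reached 0.108 and Stra8 0.027 with detected genes as a covariate, and Upp1 -0.401 and Sohlh2 0.039 from the log2 of the mean FPKM. With means not weighted Rarg reached 0.171, Sohlh2 0.067 and Stra8 0.14. Zbtb16 reached -0.076 without the replicate block and Rarg 0.021 with only the quartiles of the contrast in the fit. Against Q4, Sohlh2 reached 0.091 with cells scaled to a common 75th percentile. With the covariate Kit reached -0.255, Sohlh1 -0.667 and Zbtb16 -0.216. From the log2 of the mean FPKM Gfra1 reached -0.023, Nanos3 -0.059, Sohlh1 -0.005 and Dnmt3b -0.099. With means not weighted Ret reached 0.074, Sox3 -0.051, Sohlh1 -0.107 and Sohlh2 0.06. Leaving out each preparation in turn, differences from Q2 ran from -0.169 to 0.426 for Dnmt3b, -0.447 to 0.199 for Id4, -0.028 to 0.687 for Nanos3, -0.158 to 0.162 for Rarg, -0.472 to 0.354 for Sohlh2, -0.456 to 0.134 for Stra8, -0.804 to 0.077 for Tcl1, -0.451 to 0.592 for Upp1 and -0.034 to 0.083 for Zbtb16. Differences from Q4 ran from -0.149 to 0.410 for Bcl6b, -0.178 to 0.853 for Ccnd2, -0.172 to 0.446 for Dnmt3b, -0.131 to 1.092 for Lin28a, -0.437 to 0.074 for Ret, -0.210 to 0.203 for Sohlh1, -0.209 to 0.087 for Sohlh2, -0.013 to 0.294 for Sox3 and -0.654 to 0.096 for Stra8. Depth limits low genes such as Sox3, where 1 missed molecule can turn a cell to 0. Its median was 3.98 FPKM in the Q3 cells where it was detected. Id4 and Neurog3, detected in fewer Q3 cells, had medians of 14.1 and 34.12 FPKM where detected. The part of depth in the zeros was not tested, and 7 to 20 Q3 cells a preparation limit each share.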
